A study of Mus musculus with 8 samples.

Results

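The nuclear genes of the respiratory chain were taken as the protein-coding genes whose mouse symbols carry the names of complex I subunits (Ndufa, Ndufb, Ndufc, Ndufs and Ndufv with a number), succinate dehydrogenase subunits (Sdha to Sdhd), complex III subunits (Uqcr), cytochrome c oxidase subunits (Cox4 to Cox8 with a letter) or ATP synthase subunits (Atp5), and that had at least 10 reads in 4 or more of the 8 libraries. Of the 49585 genes in the table, 82 matched the names and 77 also met the read minimum: 36 in complex I, 4 in complex II, 8 in complex III, 12 in complex IV and 17 in complex V. No measured difference between the groups was used to choose them. They lie on 19 chromosomes.

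The respiratory chain passes electrons from NADH (through complex I) and succinate (through complex II) to ubiquinone, then through complex III and cytochrome c to complex IV, where oxygen is reduced. The proton gradient built by complexes I, III and IV drives ATP synthase, complex V. All subunits of complex II and most subunits of the other complexes are encoded in the nucleus and imported, while a few hydrophobic core subunits come from the mitochondrial genome, and neurons depend heavily on the ATP made this way.

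RNA was measured in whole brains of newborn female F1 mice (postnatal day 1 in the labels), bred from C57BL/6J mothers and CAST/EiJ fathers (B × C). The mothers had drunk water with 0 ppm CdCl2 (4 pups) or 50 ppm CdCl2 (4 pups) before and throughout pregnancy, and each pup came from a different litter. The pups themselves were not dosed, so the exposure compared is that of the mother. Poly(A) RNA was sequenced, and the libraries held between 22916434 and 30708087 reads assigned to genes.

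The mRNA level of a gene is given as CPM (read counts scaled to a common library size). Unless stated, levels are compared between genes after division by transcript length. This is the median length of the gene's protein-coding transcripts that the annotation marks as principal. On this scale ATP synthase held the most abundant mRNAs. Atp5b, the catalytic beta subunit, stood highest at 525 CPM per kb, followed by Atp5a1, the alpha subunit, at 321 CPM per kb and Atp5g3, a gene for the membrane ring subunit c, at 271 CPM per kb. The median level was 49.0 CPM per kb in complex I, 70.1 in complex II, 78.5 in complex III, 99.9 in complex IV and 90.7 in complex V. In complex I the highest was Ndufa4 at 179 CPM per kb, a protein now regarded as a subunit of complex IV although it keeps a complex I name. By the rule on symbols, Ndufa4 and its paralog Ndufa4l2 are counted in complex I throughout. Within complex II, Sdhc, a membrane anchor, stood at 26.0 CPM per kb against 76.8 for Sdha, 83.8 for Sdhb and 63.3 for Sdhd. Before division by length Sdhc, at 82.5 CPM, lay between Sdhd (78.0 CPM) and Sdhb (95.7 CPM). Its low place thus rests on the transcript length used, 3171 bases.

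**Figure D1:**
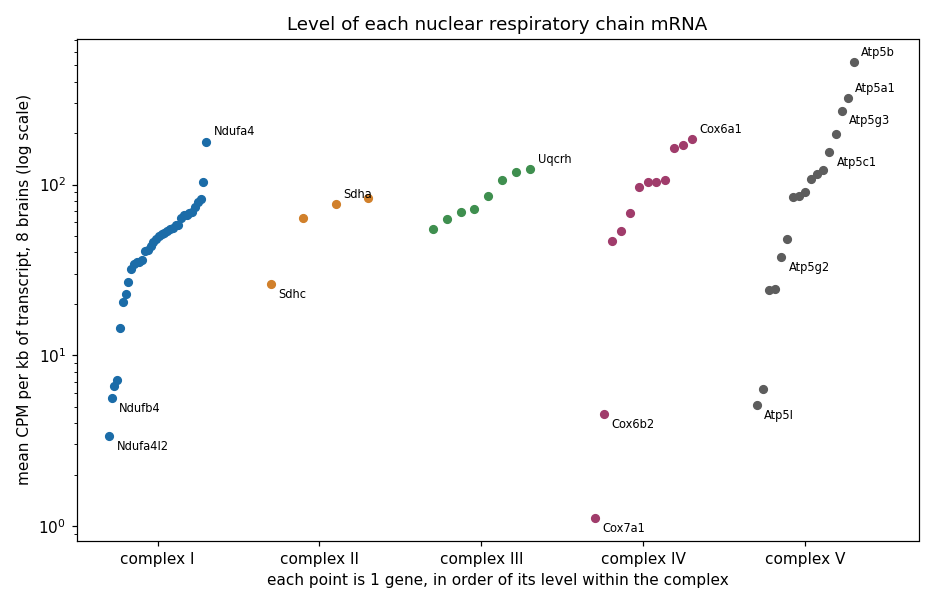
Level of each of the 77 nuclear respiratory chain mRNAs (mean CPM per kb of transcript over 8 brains, log scale), arranged by complex, with 1 point per gene. Atp5b is highest at 525 CPM per kb, and the tissue isoforms Cox7a1 and Ndufa4l2 lie near the bottom at 1.11 and 3.36 CPM per kb.

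Some members share sequence with processed pseudogenes. Reads of 115 bases (125 sequenced, 10 trimmed) starting at 57.2% of the positions in Atp5l, an accessory subunit of ATP synthase, also occur in other genes, and the listed level of Atp5l was 5.11 CPM per kb. The same share was 34.1% for Atp5g2, 32.2% for Ndufb4 and 15.1% for Cox7c, at levels of 37.4, 5.62 and 106 CPM per kb. Sharing and a low level did not always go together. Atp5h shared 18.2% and stood at 115 CPM per kb, while Ndufb2 shared 0% and stood at 6.60 CPM per kb. In all, 8 members shared more than 10% and 14 shared any, so the levels of these genes are uncertain where reads that map to several places were dropped.

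The first question was whether maternal Cd moved the chain as a whole. The summed CPM of the 77 members was 6464, 6471, 7037 and 6397 in the 0 ppm brains and 6790, 7085, 6414 and 6374 in the 50 ppm brains, in the order of replicates 1 to 4. The groups overlapped throughout their range, and the mean at 50 ppm was 1.11% above that at 0 ppm, against a coefficient of variation of 4.53% among the 0 ppm brains and 5.04% among the 50 ppm brains. Without 50 ppm replicate 2 this difference was -1.01%, and without 0 ppm replicate 3 it was 3.44%, so its direction depended on single brains. In whole brain RNA, fewer cells of a type and less RNA per cell cannot be told apart, and a sum over all cells does not show whether a single cell type differed.

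Each complex gave a similar picture. Complex I summed to 1687 ± 69.1 CPM at 0 ppm and 1689 ± 97.3 CPM at 50 ppm (mean ± SD, n = 4 in each group). For complex II the sums were 477 ± 24.9 and 481 ± 14.7 CPM, and for complex III they were 726 ± 35.1 and 737 ± 39.9 CPM. Complex IV summed to 727 ± 36.9 CPM at 0 ppm and 721 ± 62.0 CPM after exposure, a difference of -0.71% that became 2.76% without 50 ppm replicate 4 and 1.71% without 0 ppm replicate 3. ATP synthase, which made up the largest part of the summed CPM, summed to 2976 ± 137 CPM at 0 ppm and 3037 ± 134 CPM at 50 ppm. The difference for complex I, 0.14% with all brains, lay between -2.07% and 2.22% without single brains. In none of the 5 complexes did the difference of the means exceed the SD of either group.

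**Figure D2:**
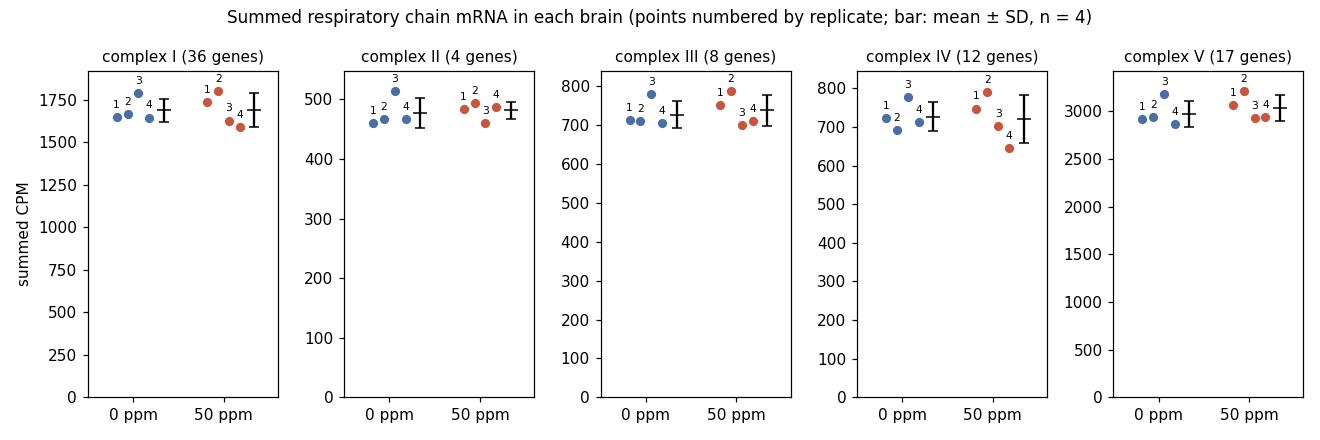
Summed CPM of the members of each complex in each brain, with the points numbered by replicate and the bars giving mean ± SD (n = 4). In every complex the 2 groups overlap, and 0 ppm replicate 3 and 50 ppm replicate 2 are the 2 highest brains.

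Gene by gene, none of the 77 members passed an adjusted p of 0.05 in edgeR's quasi-likelihood test, in which 4 of 23113 genes did (0.0173%). None had an unadjusted p under 0.05 either, where 3.75% of all genes did (2.31% higher and 1.44% lower at 50 ppm). In none were the 2 doses free of overlap, a pattern that 2.09% of all genes showed (1.19% higher and 0.904% lower at 50 ppm). The smallest p of a member was 0.195 (Ndufb4, edgeR adjusted p = 0.999). These counts, read against the share among all genes, are descriptions of the list.

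The log2 fold changes of the members ran from -0.09 (Cox7c) to 0.22 (Ndufa4l2) with a median of 0.0058, beside a median of -0.0033 over all 23113 genes. Only Ndufa4l2, Ndufb4 and Cox6b2 had a change larger than 0.1 in size. The standard error had a median of 0.084, and the 95% interval stayed within a 1.3-fold difference in either direction for 73 of 77 members and within 1.5-fold for 75. The 2 whose intervals reached 1.5-fold were Ndufa4l2 and Cox7a1, both scarce. Among genes with a mean of 10 CPM or more, the median size of the log2 fold change was 0.025 for the 70 members and 0.051 for all 10330 genes, at median standard errors of 0.083 and 0.088.

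**Figure D3:**
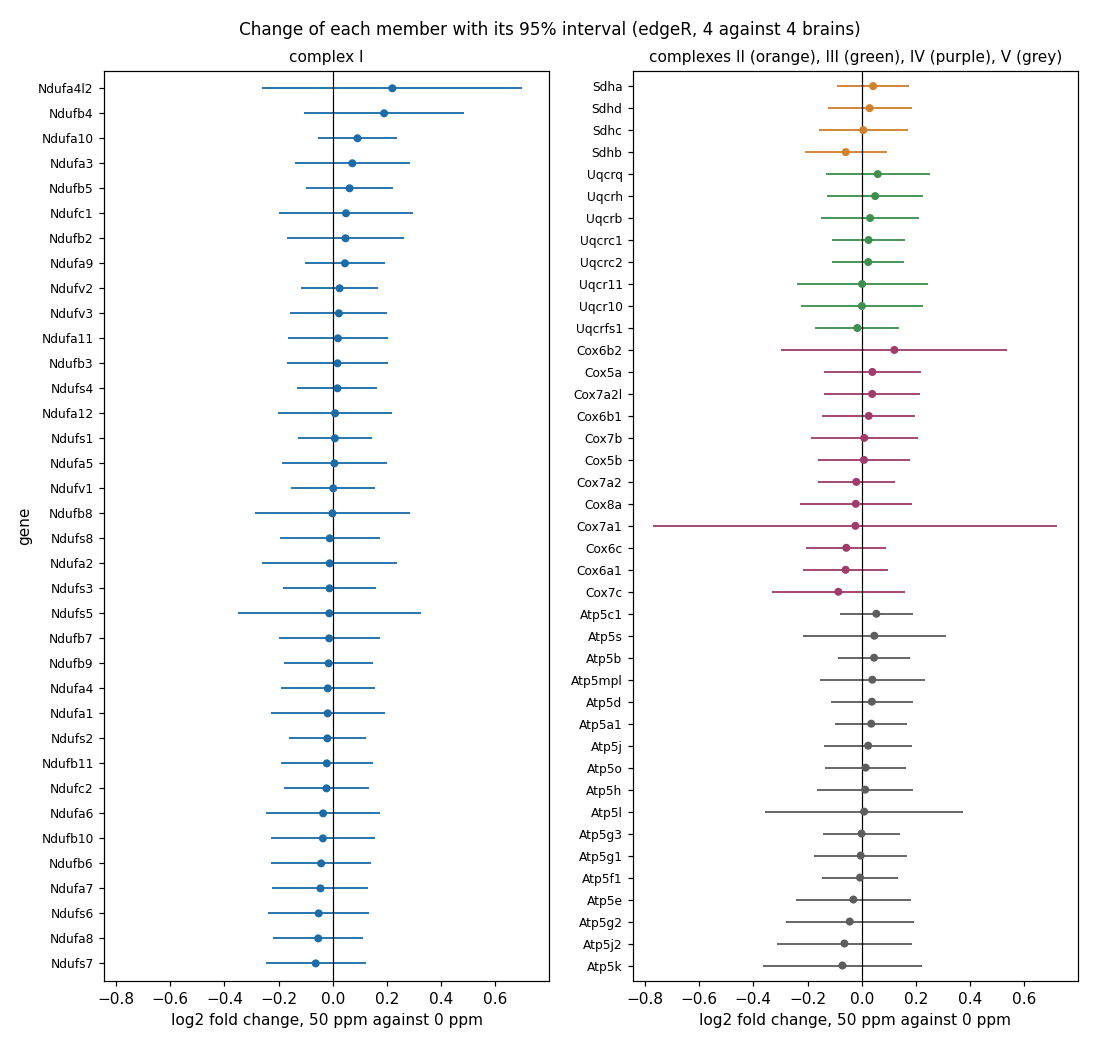
Log2 fold change of each member at 50 ppm against 0 ppm (point) with its 95% interval (line), from edgeR on 4 against 4 brains, complex I on the left and complexes II to V on the right. All intervals cross 0, and the widest belongs to Cox7a1, from -0.77 to 0.72.

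The direction of these small changes depended on single brains. At 50 ppm the fold change was positive for 43 members and negative for 34 (55.8% positive, against 49.0% of all genes). It was positive for 27 members without 0 ppm replicate 2 and for 25 without 50 ppm replicate 2. Without 0 ppm replicate 3 or without 50 ppm replicate 4 it was positive for 62. By complex, 17 of 36 were positive in complex I, 3 of 4 in complex II, 7 of 8 in complex III, 6 of 12 in complex IV and 10 of 17 in complex V.

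In complex I, the 7 core subunits (with the flavin, the iron-sulfur clusters and the quinone site) had a median log2 fold change of -0.01. The 29 other members with complex I names, Ndufa4 and Ndufa4l2 included, had one of -0.0016. Ndufs1, the largest core subunit and the complex I member with the most reads, stood at 127, 133, 137 and 129 CPM in the 0 ppm brains and at 128, 134, 128 and 138 CPM in the 50 ppm brains. Its 8 values interleave, with a log2 fold change of 0.01 ± 0.06 (SE) and a 95% interval from -0.13 to 0.14. Ndufv1, which binds NADH and the flavin, differed by 0.0015 ± 0.07 and Ndufv2, its partner in the same module, by 0.03 ± 0.07. The most negative member of complex I was Ndufs7, which holds the last iron-sulfur cluster before the quinone, at 31.1 ± 2.03 CPM (SD, n = 4) against 29.8 ± 2.28 CPM (log2 fold change -0.06 ± 0.09). Ndufa8, an accessory subunit, stood at 58.0 and 55.9 CPM (-0.05 ± 0.08).

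Ndufb4, an accessory subunit of the membrane arm, had the smallest p of the members. The controls held 4.37, 5.39, 5.19 and 5.46 CPM and the exposed brains 6.10, 6.11, 5.35 and 5.69 CPM. Replicate 3 of the exposed brains lay below 2 controls, so the groups overlapped, and the log2 fold change was 0.19 ± 0.14 (95% interval -0.11 to 0.48). It is also one of the members whose reads are partly shared with a pseudogene.

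The 4 subunits of succinate dehydrogenase did not move in 1 direction. Sdha, the flavoprotein that oxidises succinate, stood at 216, 209, 233 and 220 CPM in the controls and at 221, 228, 223 and 233 CPM in the exposed brains (log2 fold change 0.04 ± 0.06). Sdhb, the iron-sulfur subunit, was at 90.9, 96.2, 108 and 95.3 CPM against 96.3, 95.8, 87.5 and 95.4 CPM (-0.06 ± 0.07). Both sets of values overlap. The membrane anchors Sdhc and Sdhd, which hold the haem, differed by 0.0058 ± 0.08 and 0.03 ± 0.07.

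In complex III, Uqcrc2, a core protein and the member with the most reads, was measured at 193, 203, 209 and 198 CPM at 0 ppm and at 204, 214, 192 and 207 CPM at 50 ppm, a log2 fold change of 0.02 ± 0.06. Uqcrfs1, the Rieske iron-sulfur protein, was the only member of the complex with a negative value, -0.02 ± 0.07. The most positive were the small subunits Uqcrq (0.06 ± 0.09) and Uqcrh (0.05 ± 0.08), a hinge protein near cytochrome c1. None of these differences was larger than its error.

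Since the chain depends on iron, the 9 members that carry iron-sulfur clusters or haem were read as a group. They are Ndufv1, Ndufv2, Ndufs1, Ndufs7, Ndufs8, Sdhb, Sdhc, Sdhd and Uqcrfs1. Of these, 5 had a positive and 4 a negative log2 fold change, with a median of 0.0015 and a range from -0.06 to 0.03, and none had an unadjusted p under 0.05. Summed over these genes, the level was 767 ± 35.5 CPM in controls and 765 ± 33.2 CPM after exposure (SD, n = 4).

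Cytochrome c oxidase had most of its mRNA in the ubiquitous isoforms. Cox6a1, Cox6b1 and Cox5a were the highest at 184, 170 and 165 CPM per kb. Cox5a stood at 106, 98.0, 119 and 95.8 CPM in the controls and at 113, 120, 100 and 97.4 CPM in the exposed brains (log2 fold change 0.04 ± 0.09). Cox7c had the most negative value of all members, with 61.3, 51.7, 63.2 and 60.5 CPM in the controls and 64.5, 62.0, 56.6 and 39.8 CPM in the exposed brains (-0.09 ± 0.12). That value rested on 50 ppm replicate 4, without which it was 0.04. Cox6a1 differed by -0.06 ± 0.08 and Cox8a by -0.02 ± 0.10. Cox7a2l, a relative of Cox7a2 that takes part in supercomplex assembly, differed by 0.04 ± 0.08, and Cox7a2 itself by -0.02 ± 0.07.

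The isoforms used in heart, skeletal muscle or testis were scarce. Cox7a1, the muscle counterpart of Cox7a2, stood at 1.11 CPM per kb against 104 for Cox7a2, and Cox6b2, the testis counterpart of Cox6b1, at 4.53 CPM per kb against 170. Cox6a2, the muscle counterpart of Cox6a1, had between 2 and 11 reads per library and fell under the read minimum, as did the testis isoform Cox7b2 (0 to 5 reads) and Cox8b and Cox8c (0 or 1 read each). A library with 0 reads allows up to 3 counts, or between 0.0980 and 0.132 CPM by library, for counting error only. Cox6b2 was measured at 2.01, 1.97, 2.55 and 3.10 CPM in the controls and at 3.02, 2.74, 2.43 and 2.25 CPM in the exposed brains, which overlap (log2 fold change 0.12 ± 0.20). The 11 skeletal muscle markers summed to between 8.40 and 9.49 CPM at 0 ppm and between 8.17 and 10.1 CPM at 50 ppm, and none was at 0 in all 8 brains.

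Ndufa4l2, a paralog of Ndufa4 known for its induction by hypoxia and its high level in pericytes, had the largest value of any member and rested on 1 brain. It stood at 2.97, 2.38, 3.40 and 2.87 CPM at 0 ppm and at 2.63, 2.60, 5.39 and 2.91 CPM at 50 ppm. Only replicate 3 of the exposed brains left the range of the controls. The log2 fold change was 0.22 ± 0.23 with all brains and -0.10 without that replicate. All 6 pericyte and endothelial markers had a positive log2 fold change. Rgs5, Kcnj8 and Abcc9 had an unadjusted p under 0.05, which 3.75% of all genes met (edgeR adjusted p = 0.999 for each). The markers summed to 286, 228, 281 and 259 CPM in the controls and to 271, 284, 328 and 338 CPM in the exposed brains, none of the 6 was at 0, and their part in the level of Ndufa4l2 was not tested.

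In ATP synthase, the catalytic F1 head and the rest of the enzyme were compared. Atp5b was measured at 993, 983, 1034 and 948 CPM in the 0 ppm brains and at 1026, 1095, 974 and 990 CPM in the 50 ppm brains. Of the exposed brains only replicate 2 lay above all controls, and the log2 fold change was 0.05 ± 0.06. Atp5c1, the central rotor shaft, had the most positive value of the complex, 0.05 ± 0.06, with 177 ± 6.62 CPM against 184 ± 7.89 CPM (SD, n = 4). Over the 5 subunits of F1 the median was 0.04, with 4 of 5 positive, and over the other 12 it was 0.0043, with 6 of 12 positive. The most negative were Atp5k and Atp5j2, small subunits of the membrane part, at -0.07 ± 0.14 and -0.06 ± 0.12, and Atp5s, a coupling factor, stood at 0.05 ± 0.13.

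A set of 3 genes, Atp5g1, Atp5g2 and Atp5g3, encodes the same mature subunit c, and they differ in the import sequence that is cleaved off. Atp5g3 gave most of this mRNA, at 271 CPM per kb against 37.4 for Atp5g2 and 24.2 for Atp5g1. Before division by length Atp5g1 stood above Atp5g2, at 64.7 and 21.9 CPM. The order of these 2 genes thus rests on the transcript lengths used (2675.5 and 586 bases). The level of Atp5g2 is also uncertain because 34.1% of its read positions are shared with pseudogenes. Together the 3 genes summed to 282 ± 16.0 CPM at 0 ppm and 281 ± 15.0 CPM at 50 ppm. Atp5g2 stood at 21.6, 22.5, 21.7 and 23.3 CPM in the controls and at 23.5, 23.2, 23.3 and 16.2 CPM in the exposed brains. A single exposed brain, replicate 4, lay below all others, and without it the log2 fold change of Atp5g2 turned from -0.04 to 0.07.

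The members varied together from brain to brain, irrespective of dose. In each of the 5 complexes the highest sums were those of 0 ppm replicate 3 and 50 ppm replicate 2. The former had the highest level of the 4 controls in 59 of 77 members and the latter the highest of the 4 exposed brains in 49. The summed mRNA of 80 cytosolic ribosomal protein genes was also highest in these 2 brains, at 15070 and 15026 CPM against 13668 to 14557 CPM in the other six.

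At the other end, 50 ppm replicate 4 had the lowest level of all 8 brains in 32 members, and these were mostly short mRNAs. It was lowest in 22 of the 39 members with a median transcript of 838 bases or less and in 10 of the 38 longer ones. Its log2 CPM lay below the mean of the 8 brains by a median value of -0.17 for the short members and -0.03 for the long ones. Over all genes with a mean of 10 CPM or more, the members included, the same medians were -0.13 for 264 genes of that length and -0.0013 for 9878 longer genes. Across members, the deviation in this brain had a Spearman correlation with transcript length of 0.61 (77 genes of the same library), while in the other seven brains the coefficient lay between -0.39 and 0.38. This library was also the least deep of the 8, and the part of depth and transcript length in these values was not tested.

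**Figure D4:**
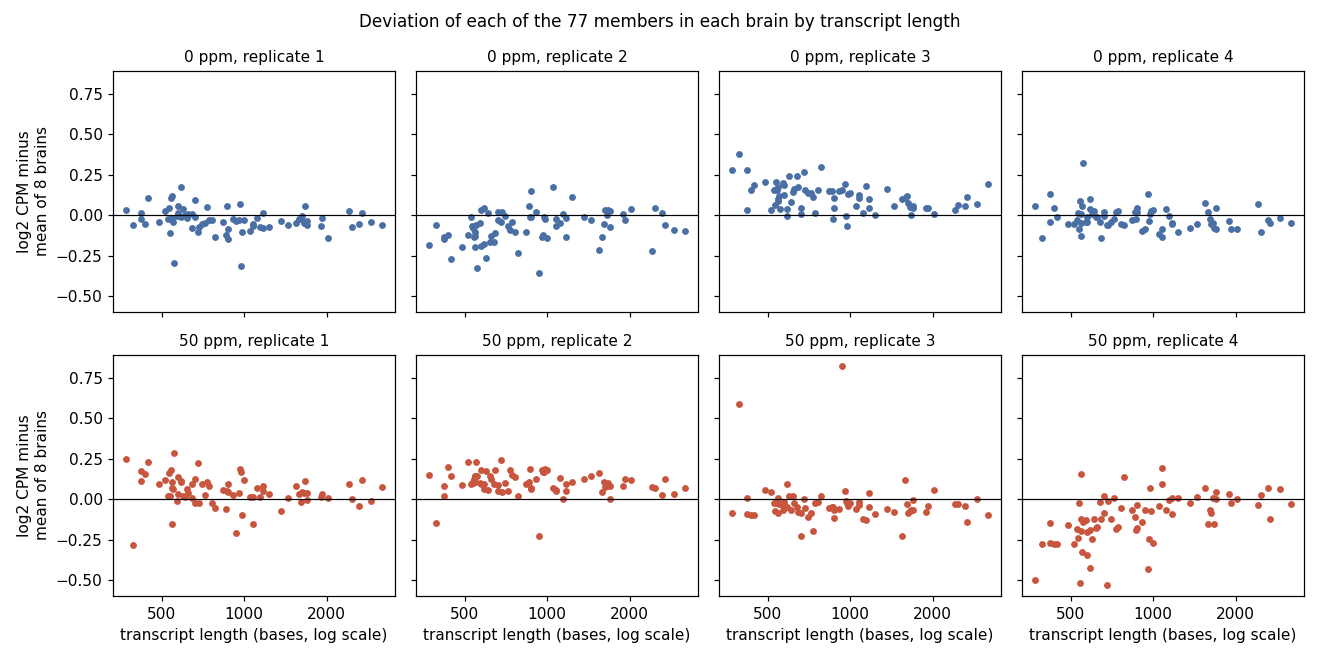
Log2 CPM of each member in each brain minus its mean over the 8 brains, against the median transcript length of the gene (bases, log scale), with 0 ppm above in blue and 50 ppm below in red. In 50 ppm replicate 4 the shorter mRNAs lie lowest, and in 0 ppm replicate 3 and 50 ppm replicate 2 nearly all members lie above 0 (72 and 74 of 77).

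The mRNAs of the mitochondrial genome, which supply the other subunits of complexes I, III, IV and V, were read in the same poly(A) libraries. Of the 13, 5 (mt-Co2, mt-Atp8, mt-Co3, mt-Nd3 and mt-Nd4l) were listed at 0 in all 8 brains, while mt-Atp6 had 0 to 2 reads. The others were mt-Nd1, mt-Nd2, mt-Nd4, mt-Nd5 and mt-Nd6 of complex I, mt-Cytb of complex III and mt-Co1, the catalytic subunit of complex IV. All 7 had a positive log2 fold change and an unadjusted p under 0.05 in edgeR's test, which 2.31% of all genes showed. None passed after adjustment over all genes. Summed over the list, the control brains held 12197, 13991, 13008 and 13758 CPM and the exposed brains 14100, 14599, 16334 and 20515 CPM. The exposed brains lay above the controls, with 50 ppm replicate 4 far above the rest. For mt-Co1 the means were 3957 and 4940 CPM (log2 fold change 0.32 ± 0.09, edgeR adjusted p = 0.745), and the smallest adjusted p was that of mt-Nd6, 0.319. Without 50 ppm replicate 4, 4 of the 7 had an unadjusted p under 0.05 and the median log2 fold change over the list was 0.19, against 0.30 with all brains.

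**Figure D5:**
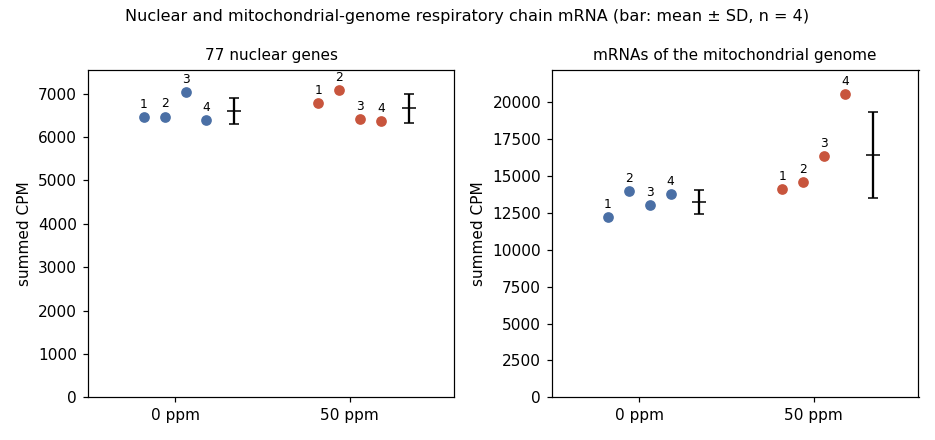
Summed CPM of the 77 nuclear genes (left) and of the mRNAs of the mitochondrial genome (right) in each brain, with the points numbered by replicate and the bars giving mean ± SD (n = 4). The nuclear sums overlap between 6374 and 7085 CPM, while the mitochondrial sums reach 20515 CPM in 50 ppm replicate 4.

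Nuclear genes that build, feed or translate the chain were counted in the same way. Of 42 assembly factors tested, 22 had a positive and 20 a negative log2 fold change, none had an unadjusted p under 0.05, and the median was 0.01. Coa5, which had the highest CPM of them before division by length, differed by 0.04 ± 0.07. In the TCA cycle, which delivers NADH and succinate, 12 of 13 genes had a positive value, the median was 0.05 and no p was under 0.05. Of 14 genes that build iron-sulfur clusters, 5 were positive, with a median of -0.03. The 75 mitochondrial ribosomal protein genes had a median of -0.03 and the 76 cytosolic ones of 0.0039, again with none under 0.05.

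The rule on symbols missed further subunits. Cyc1, the haem protein of complex III, stood at 110 and 113 CPM (log2 fold change 0.04 ± 0.08), Cycs, the somatic cytochrome c, at 28.7 and 28.9 CPM (0.01 ± 0.10), and Ndufab1, the acyl carrier protein of complex I, at 20.8 and 21.6 CPM (0.05 ± 0.10). Cox4i2, the lung isoform of Cox4, was scarce, at 0.648 and 0.675 CPM (0.04 ± 0.37). Cox4i1 and the complex I subunit Ndufa13 were listed at 0 in all 8 libraries, as was the neuronal tubulin gene Tubb3, so a 0 here says only how the gene is listed.

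Regulators of these genes were read from a list of 18. Nrf1, a factor that acts on many chain genes, stood at 41.3 and 41.6 CPM, Gabpa (the alpha part of NRF2) at 55.0 and 53.2 CPM, the coactivator Ppargc1a at 44.7 and 44.2 CPM, and Tfam, the mitochondrial genome's packaging factor, at 47.4 and 47.8 CPM, at 0 ppm and 50 ppm respectively. None of these had an unadjusted p under 0.05. The nuclear receptors Esrrg and Esrrb did, as did 3.75% of all genes. Esrrg stood at 39.4, 65.5, 67.3 and 61.3 CPM in the controls and at 71.6, 79.7, 87.7 and 90.2 CPM in the exposed brains, which did not overlap (log2 fold change 0.50 ± 0.13, edgeR adjusted p = 0.570). Esrrb differed by 0.52 ± 0.22 (edgeR adjusted p = 0.999) and overlapped.

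The promoters of the members were searched for short motifs. RefSeq windows of 300 bases (250 before to 50 after the transcript start, GRCm38.p6) were found for 64 of the 77 members, in 69 windows. The letters CGCANGCG, the core of the NRF1 motif (N is any base), occurred on either strand in 40.6% of these and in 8.21% of all 32851 windows. For CCGGAAG, an ETS motif bound by GABPA and likewise searched on both strands as were the rest, the shares were 23.2% and 8.86%. For AAGATGGCG, a YY1 motif, they were 10.1% and 1.40%. TCAAGGTCA, the element bound by ERR receptors, occurred in only 2 of the 69 member windows (2.90%, against 0.423% of all), those of Atp5g3 and Sdhd. The CCAAT box was about as frequent in both, at 40.6% and 37.4%. G and C made up 57.6% of the member windows against 53.8% of all. A match describes the sequence and is not a measured binding site.

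To show 1 motif, the NRF1 letters (in capitals) are given with 11 bases on either side, read 5′ to 3′ on the gene's strand. In each complex the member with the highest CPM, not divided by length, was taken among those with a suitable match. A match on either strand was suitable if the letters and both flanks lay in the window before the transcript start. In the stretch of Ndufa8 the letters lie on the strand opposite to the gene, so its capitals are their reverse complement. The windows of Uqcr10, Uqcr11 and Uqcrc1 in complex III hold the letters, but none has a suitable match. The stretch of Ndufa8 lies at chr2:36049349-36049378, that of Sdha at chr13:74350319-74350348, that of Cox6a1 at chr5:115349101-115349130 and that of Atp5c1 at chr2:10080465-10080494, all on the minus strand.
Ndufa8: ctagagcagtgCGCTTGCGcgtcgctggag
Sdha: cgtttacagggCGCAGGCGcaccaccactc
Cox6a1: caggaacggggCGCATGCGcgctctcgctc
Atp5c1: gagaccgaggaCGCAGGCGgagcgggccgg
These genes had log2 fold changes of -0.05, 0.04, -0.06 and 0.05, each smaller in size than its standard error.

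Markers of brain regions and cell types were read in the same libraries. Of 6 oligodendrocyte markers, 5 had a positive and 1 a negative log2 fold change. At an unadjusted p under 0.05, which 3.75% of all genes met, 4 were higher at 50 ppm, among them Mag, Mbp and Cnp. The list summed to 110 to 140 CPM in the controls and 136 to 206 CPM in the exposed brains. Of 9 brainstem and spinal cord markers tested, 8 had a positive and 1 a negative value. At that threshold 3 were higher, among them Glra1 and Slc6a5 (45.8 to 100 CPM against 75.1 to 111 CPM summed, with Slc18a3 at 0). Of 8 forebrain markers, 7 had a negative and 1 a positive value. At that threshold 3 were lower, among them Dlx5 and Emx2 (467 to 886 CPM against 608 to 746 CPM). In the astrocyte list 2 of 6 genes, Aqp4 and Gja1, were higher at that threshold (1093 to 1606 CPM against 1453 to 1645 CPM). None of these genes passed after adjustment in edgeR. The study's own DESeq2 analysis of these brains did report Mag, Mbp and Cnp as significant after correction. The blood list (128 to 312 CPM against 100.7 to 404 CPM), the choroid plexus list (445 to 1178 CPM against 346 to 786 CPM) and the neuron list (3436 to 3859 CPM against 3670 to 3887 CPM, with Tubb3 at 0) had no gene under 0.05. The part of these differences in the levels of the chain, of Esrrg and of the mitochondrial mRNAs was not tested.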

How the data were processed

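The authors trimmed the first 10 bases of single-end 125-base reads, used STAR for alignment and HTSeq for counting (FastQC and DESeq2 are further tools in the submitters' processing notes); versions and the strand setting are not given in the sources used here. The deposited values were raw counts per gene for the C57BL/6J genome and, separately, for the CAST/EiJ genome, whose identifiers could not be paired with the members. Members and gene lists were chosen with earlier results of these data known. A filter on genes at 0 in over 2/3 of libraries, as in the study, kept 23113. Counts were tested in R 4.3.3 with edgeR 4.0.16 (glmQLFit and glmQLFTest, TMM, treatment as the only term), with Benjamini-Hochberg adjustment over all genes tested and a threshold of 0.05, and the steps were tested on simulated data. CPM used TMM library sizes. The standard error is the log2 fold change divided by the square root of F. Symbols, coordinates and transcript lengths came from GENCODE M21 (GRCm38), which named 49326 of 49585 identifiers. DESeq2 1.42.0, its size factors, other count filters, a robust fit, the CAST/EiJ table and leaving out each library were the alternatives. Members named in the text are, per complex, the one with the highest CPM, the 2 most positive and the 2 most negative (1 each in complex II), those past a threshold, iron-binding subunits and paralogs. Of the listed genes outside the rule, those with an unadjusted p under 0.05, those with the highest CPM and the missed subunits are named (some single genes are not reported here), and Atp5a1, Atp5l, Nrf1, Gabpa, Ppargc1a and Tfam were added after their values were seen. Replicates are numbered in accession order, which is only a name, and each pup came from its own litter.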

Additional observations from a re-analysis of the deposited data

Results flagged for a closer look

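Among 82 sets of 4 brains examined (each named member and summed level, by dose), 10 had a highest or lowest brain whose gap to the next, as a share of the range of the 4, passed Dixon's critical value at 95%. Chance gives this in about 1 in 20 sets. In the 0 ppm group, replicate 3 was the high brain for the summed CPM of all members (7037), of complex I (1790), complex II (514) and complex III (779), and for Sdhc (94.1 CPM) and Cox7a1 (0.555 CPM). In the 50 ppm group, replicate 3 was high for Ndufa4l2 (5.39 CPM) and Cox7a1 (0.642 CPM) and low for Sdhb (87.5 CPM), and replicate 4 was low for Atp5g2 (16.2 CPM). The sums share their members, so these sets are not independent of each other.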

How the results depend on the processing

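No member passed the adjusted or the unadjusted threshold under any alternative run, and the medians and sums of the members moved by less than the spread between brains. Over all genes, the number past the adjusted threshold was 4 and became 18 with DESeq2, 52 with no filter, 2 with at least 10 counts in 4 libraries, 2 with the CAST/EiJ table and 2 to 20 without single libraries (2 without 0 ppm replicate 1, 0 ppm replicate 2 or 50 ppm replicate 4, 8 without 50 ppm replicate 3, 20 without 0 ppm replicate 3). The members with a positive log2 fold change numbered 25 to 62 without single libraries. Atp5g3, at -0.00039, changed sign to 0.00062 with DESeq2, 0.00067 with its size factors and 0.0018 with the stricter filter. Leaving out single libraries changed the sign of these log2 fold changes, whose ranges were Ndufa4 from -0.076 to 0.051, Ndufa4l2 from -0.10 to 0.33, Ndufs1 from -0.015 to 0.029, Ndufs8 from -0.080 to 0.032, Ndufv1 from -0.034 to 0.049, Sdhc from -0.026 to 0.077, Sdhd from -0.0021 to 0.074, Uqcr10 from -0.068 to 0.083, Uqcrfs1 from -0.062 to 0.038, Cox5a from -0.017 to 0.11, Cox6b1 from -0.023 to 0.085, Cox7a1 from -0.27 to 0.11, Cox7a2 from -0.040 to 0.011, Cox7a2l from -0.023 to 0.10, Cox7c from -0.16 to 0.043, Cox8a from -0.11 to 0.071, Atp5g1 from -0.046 to 0.047, Atp5g2 from -0.085 to 0.068, Atp5g3 from -0.022 to 0.048, Atp5j2 from -0.14 to 0.048, Atp5k from -0.17 to 0.055, Atp5s from -0.013 to 0.13. The cause was not tested for any of these. Depth limits scarce members such as Cox7a1 most, and identifiers of the CAST/EiJ table could not be paired with members, so no member was recomputed there. No paired analysis was possible because the labels carry no replicate numbers shared between the doses.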
